A study of Mus musculus with 18 samples.

Results

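The comparison described here sets deletion of Rbpj in the basal layer of mouse epidermis beside deletion of Notch1 in the same layer. It uses 12 of the 18 mice in the series, chosen by the labelled genotype and batch, and 1 quantity per gene: the effect of losing Rbpj minus the effect of losing Notch1. KR mice (n = 4, cage batch 2) carried K14-CreERT and lost Rbpj, and KR controls (n = 2, numbered 4 and 6) came from the same batch. KN1 mice (n = 4, cage batch 3) carried a driver written K14-CreERT1 and lost Notch1, and KN1 controls (n = 2, numbered 1 and 7) came from that batch. The labels call each control only a control for its mutant, so the alleles that the controls carry are not described. All mice received tamoxifen at 8 weeks of age, and back skin was harvested 10 weeks later, labelled as telogen, when hair follicles rest. The epidermis was freed with trypsin and scraped off, and its poly(A) RNA was sequenced. In the 6 remaining mice (cage batch 1), LR, Lrig1-CreERT2 deleted Rbpj. These mice enter only as a further estimate of the spread and as values beside some genes.

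Notch receptors on a cell are cut when a ligand of a neighbouring cell binds them, and the freed intracellular part enters the nucleus. There it joins Rbpj, a DNA-binding protein that represses its target genes without Notch and activates them with it. Loss of Notch1 removes 1 receptor and leaves the paralogues Notch2, Notch3 and Notch4, while loss of Rbpj removes the factor that all Notch receptors use. In the epidermis, Notch signalling is known to promote the switch of basal keratinocytes to differentiation, and skin without it is known to release the cytokine Tslp. Krt14, whose promoter gives the K14 drivers their name, is a keratin of basal keratinocytes, so the drivers act in the interfollicular basal layer and in basal cells of the hair follicle and sebaceous gland.

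The deleted genes were examined first. Notch1 had 330, 384, 363 and 318 CPM (a library-scaled read count, computed with TMM factors) in KR mice, against 342 and 326 CPM in KR controls. It had 105, 156, 81.9 and 107 CPM in KN1 mice, against 251 and 172 CPM in KN1 controls. All KN1 mice were below both of their controls, and Notch1 fell by 0.91 ± 0.19 on the log2 scale (SE, adjusted p = 0.0251, edgeR) in KN1 mice. In KR mice the log2 fold change was 0.06 ± 0.20 (adjusted p = 0.879). Rbpj had 41.4, 45.9, 44.0 and 40.9 CPM in KR mice, against 58.1 and 60.8 CPM in KR controls, a log2 fold change of -0.47 ± 0.17 that did not pass (adjusted p = 0.135). In KN1 mice, in which Rbpj was not the gene deleted, it had 36.8, 30.9, 34.5 and 34.6 CPM, against 42.6 and 44.2 CPM in KN1 controls. That was a log2 fold change of -0.34 ± 0.18 (adjusted p = 0.310). The count covers the whole gene, and reads of deleted exons were not separated from the rest, so the Rbpj label was not checked by these values. The difference between the effects on Rbpj was -0.12, with a 95% interval of -0.65 to 0.41.

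Esr1, the oestrogen receptor gene, part of which is fused to Cre in CreERT drivers, rose in both mutants. It had 17, 21.8, 25.3 and 24.2 CPM in KR mice, against 7.63 and 5.14 CPM in KR controls. It had 26.9, 26.9, 21.2 and 15.6 CPM in KN1 mice, against 6.78 and 3.8 CPM in KN1 controls. The log2 fold changes were 1.77 ± 0.30 in KR mice (adjusted p = 0.012) and 2.06 ± 0.31 in KN1 mice (adjusted p = 0.00641). Whether these reads came from the mouse gene or the driver was not tested. Lrig1, the gene behind the other driver of the series, had log2 fold changes of 0.28 ± 0.25 in KR mice and 0.27 ± 0.25 in KN1 mice, neither of which passed.

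The mutant libraries held 8076316 to 9562955 counts in KR mice and 8103155 to 9213875 in KN1 mice, against 11236817 to 20260259 in KR controls and 10926731 to 21216169 in KN1 controls. In each cohort 1 control (KR control 4, KN1 control 1) joins 2 sequencing occasions of the same mouse and the other (KR control 6, KN1 control 7) carries a second name, so the control pairs are alike in make-up. The cohorts themselves stood far apart. Between KR and KN1 mice set directly against each other, 2379 of 16517 genes were called (14.4%, adjusted p of at most 0.05), and between KR controls and KN1 controls 2101 were called (12.7%). Batch cannot be told apart from genotype in such direct contrasts, and each mutant was therefore set against controls of its own batch. KR mice were all of batch 2 and KN1 mice all of batch 3. A response particular to a batch, or to its pair of controls, thus cannot be told apart from genotype in the difference either.

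No gene was called in the difference between the effects of losing Rbpj and losing Notch1. In edgeR 0 of 16517 genes passed (0.00%), while 1251 had an unadjusted p under 0.05 (7.57%), of which 670 were positive (4.06%) and 581 negative (3.52%). DESeq2 on the same groups called 38 genes, 29 positive and 9 negative, and limma voom with sample weights called 0. In the same edgeR fit, 264 genes were called in KR mice (1.60%), 115 up (0.696%) and 149 down (0.902%), and 325 in KN1 mice (1.97%), 142 up (0.860%) and 183 down (1.11%). Each effect rests on 2 controls, and leaving out 1 of them leaves a single control, which also limits what can be detected. The calls depended on single mutants too. In KR mice they ran from 19 (without KR mouse 3) to 651 (without KR mouse 4). In KN1 mice they ran from 97 (without KN1 mouse 4) to 276 (without KN1 mouse 1). A single gene's log2 difference had a standard error of 0.26 for Alox12e, at 681 to 1610 mean CPM, and of 0.80 for Tslp, at 0.232 to 11.2 mean CPM. Differences of small size were therefore not detectable at this number of mice, and a p that misses the threshold does not show that the mutants respond alike.

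The effects ran in the same direction in most genes. Of 264 genes called in KR mice, 244 had the same sign in KN1 mice (92.4%), and of 325 called in KN1 mice, 304 had the same sign in KR mice (93.5%). The size differed more than the sign: the 115 genes called up in KR mice had a median log2 fold change of 1.26 there and 0.44 in KN1 mice, and the 142 called up in KN1 mice had 1.02 there and 0.37 in KR mice. A called gene tends to be overstated in the comparison that called it, and the 2 medians carry that in opposite senses. Over all 16517 genes the effects had the same sign in 67.0%, with a Pearson correlation of 0.42 and a Spearman correlation of 0.44 across genes, which share their libraries and are not independent replicates.

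**Figure D1:**
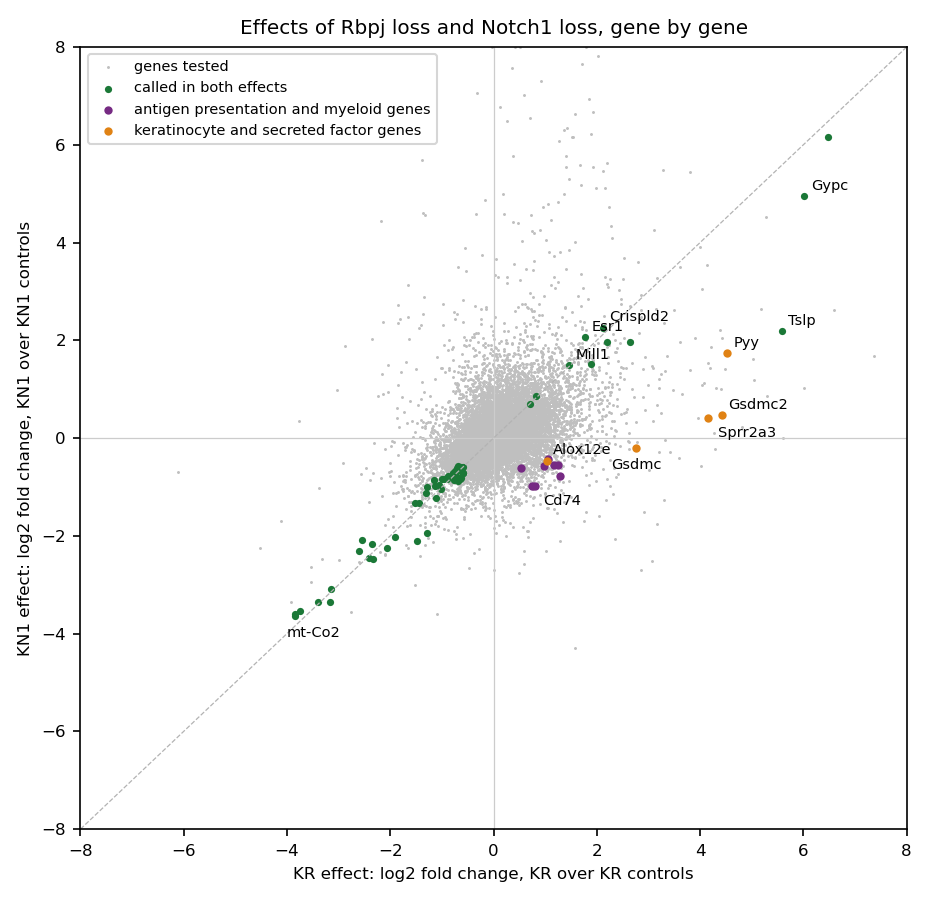
Log2 fold change in KN1 mice over their controls (vertical axis) against that in KR mice over theirs (horizontal axis), 1 point per gene of 16517, with 4 genes beyond 8 drawn at the edge; the dashed line marks equal effects. Genes called in both effects (green) lie near the line, with Gypc at the upper right and Tslp below the line, while antigen presentation genes (purple) lie right of and below the origin, and Gsdmc and Pyy (orange) lie to the right.

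The overlap of the calls was 59 genes, 11 up (0.0666%) and 48 down (0.291%) in both mutants (0.357% in all), and 0 genes (0.00%) were called in opposite directions. The 59 make up 22.3% of the genes called in KR mice and 18.2% of those called in KN1 mice. Both control pairs have the same make-up of merged and second-named libraries, and the mutants have neither. With the second-named share of each library as a covariate, 3 of the 59 were still called in both effects. Leaving out KN1 control 7 left 1 of the 59, and leaving out KR control 6 left 4.

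The genes higher in both mutants with an ordinary symbol were Gypc, Tslp, Ceacam12, Crispld2, Esr1, Mill1 and Ptprs. Gypc, which encodes glycophorin C, a membrane protein of red blood cells that other cells also make, had the smallest adjusted p in both. It had 15.1, 14.7, 22.2 and 20.2 CPM in KR mice, against 0.0966 and 0.541 CPM in KR controls. It had 16.1, 21.8, 14.1 and 14.5 CPM in KN1 mice, against 0.714 and 0.217 CPM in KN1 controls. The ranges of mutants and controls were far apart in both cohorts, and the log2 fold changes were 6.02 ± 0.53 in KR mice (adjusted p = 2.02e-05) and 4.95 ± 0.48 in KN1 mice (adjusted p = 0.000104). In LR mice, where Rbpj was deleted by the other driver, Gypc had 0.0959, 0.0862 and 0 CPM, against 0.591, 0.339 and 0.894 CPM in LR controls. Of the 4 tested genes of a red blood cell list, Gypc was the single one called (1.60% of all genes in KR mice and 1.97% in KN1 mice).

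Mill1, a relative of MHC class I genes, had 200, 239, 164 and 188 CPM in KR mice, against 66.0 and 78.5 CPM in KR controls. In KN1 mice it had 131, 81.7, 107 and 129 CPM, against 45.3 and 34.5 CPM in KN1 controls. Every mutant was above its controls, and the effects were nearly equal, 1.46 ± 0.23 in KR mice (adjusted p = 0.0102) and 1.49 ± 0.23 in KN1 mice (adjusted p = 0.00761), with a difference of -0.03 and a 95% interval of -0.66 to 0.59. LR mice gave 1.12 (adjusted p = 0.00775). The promoter of Mill1 is shown because the gene rose in all 3 mutants and because this window holds the letters of the core that Rbpj is known to bind. It is the RefSeq window of 300 bases on GRCm38.p6, chr7:18245097-18245396, plus strand, 250 bases before the transcript start and 50 after, with both matches to TGGGAA, searched on both strands, in capitals.
Mill1: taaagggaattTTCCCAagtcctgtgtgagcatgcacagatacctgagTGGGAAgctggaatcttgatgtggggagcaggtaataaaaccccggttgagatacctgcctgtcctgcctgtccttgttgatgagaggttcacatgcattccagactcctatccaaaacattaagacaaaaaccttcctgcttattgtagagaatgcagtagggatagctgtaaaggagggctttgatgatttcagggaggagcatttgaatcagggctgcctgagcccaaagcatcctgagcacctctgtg
The matches begin 239 bases before the start, on the opposite strand, and 202 bases before it, on the same strand. The same letters occur in 25.6% of all 32851 promoter windows of the table. By gene, they occur in 28.3% of its genes and in 2 of the 5 up genes that have an entry there, so a match by itself is common.

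Crispld2, which encodes a secreted protein that binds lipopolysaccharide, had 24.3, 25.5, 12.5 and 17.9 CPM in KR mice, against 5.94 and 3.06 CPM in KR controls. It had 29.1, 13.3, 33.9 and 16.9 CPM in KN1 mice, against 5.2 and 4.45 CPM in KN1 controls. The log2 fold changes were 2.12 ± 0.40 (adjusted p = 0.0217) in KR mice and 2.26 ± 0.41 (adjusted p = 0.0135) in KN1 mice. Ceacam12, of a family of cell surface glycoproteins, averaged 11.3 ± 1.16 CPM in KR mice and 2.52 ± 0.898 CPM in KR controls, and 5.07 ± 0.864 CPM in KN1 mice and 1.22 ± 0.503 CPM in KN1 controls (SD, n = 4 mutants and 2 controls each). Its level thus differed between the cohorts while its log2 fold changes, 2.20 ± 0.32 and 1.97 ± 0.34, lay within 1 standard error of each other.

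The genes lower in both mutants included members of the mitochondrial genome and of the translation machinery. Of the 48 (0.291% of all genes), 4 were among the 23 mitochondrial genes tested, 4 among 81 cytosolic ribosomal protein genes, 3 among 66 translation factors, 5 among 113 named pseudogenes and 14 among 2560 genes with clone names. mt-Co2, a subunit of cytochrome c oxidase, had 8.19, 6.54, 8.60 and 11.5 CPM in KR mice, against 70.1 and 180 CPM in KR controls. It had 7.42, 9.84, 8.03 and 7.01 CPM in KN1 mice, against 102 and 94.4 CPM in KN1 controls. It fell by 3.84 ± 0.78 in KR mice (adjusted p = 0.0369) and by 3.60 ± 0.79 in KN1 mice (adjusted p = 0.0377) on the log2 scale. mt-Co3, of the same complex, fell by 3.85 and 3.65, and the mitochondrial serine tRNA gene mt-Ts1 fell by 1.91 and 2.03, KR mice first. Over the 15 genes of the mitochondrial list, 6 were called down in KR mice (0.902% of all genes) and 3 in KN1 mice (1.11% of all genes), with medians of -1.64 and -1.08 and a median difference of -0.56, while the median over all genes was 0.04, 0.02 and 0.01. Nuclear copies can share reads with these genes. mt-Co2 had 64 and 56 reads in LR controls 2 and 3, which carry no second name, and 1066 in LR control 5, which does. LR mice had 69, 75 and 84 reads. Across alternatives other than leaving out 1 mouse, the mt-Co2 effect ran from -3.99 to -1.38 in KR mice. In KN1 mice it ran from -3.66 to -1.51. The part of control library make-up in these falls was not tested separately. Eef1a1, the elongation factor that brings tRNA to the ribosome, fell by 0.74 ± 0.17 in KR mice (adjusted p = 0.0393) and by 0.70 ± 0.17 in KN1 mice (adjusted p = 0.0397). Npm1, a nucleolar protein of ribosome assembly, fell by 0.78 ± 0.19 (adjusted p = 0.044) and by 0.73 ± 0.19 (adjusted p = 0.0499). Without KR control 6 the KR effect of Npm1 was -0.45. Eef1a1 and Npm1 were chosen after their values were seen.

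The list with the most positive median difference was that of MHC class II, the molecules with which antigen-presenting cells show peptides to T cells. All 10 tested members had a positive log2 fold change in KR mice and all 10 a negative one in KN1 mice, with medians of 0.90 and -0.56. Over all genes 53.4% were positive in KR mice and 51.8% in KN1 mice. The difference was positive in 10 of 10 (50.5% of all genes), with a median of 1.52 and a range of 1.15 to 2.06, and 9 of 10 had an unadjusted p under 0.05 (90.0%, against 7.57% of all genes). None passed adjustment over all genes in edgeR or in limma voom with sample weights. DESeq2 on the same groups called the difference of H2-DMa, H2-DMb2, Cd74, H2-DMb1, H2-Ab1 and H2-Eb1 (adjusted p from 0.00434 to 0.0464), and not that of the other members. The members share cells and regulation, 8 of them lie within 224.3 kb of each other on chromosome 17 (GRCm38, chr17:34092340-34316674), and they are not independent of one another.

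H2-DMb2, a subunit of H2-M, which loads peptides onto class II molecules, had 26.0, 23.5, 19.6 and 26.3 CPM in KR mice, against 13.8 and 5.59 CPM in KR controls. It had 9.90, 9.61, 8.44 and 8.50 CPM in KN1 mice, against 20.7 and 10.2 CPM in KN1 controls. Each KR mouse was above both of its controls and each KN1 mouse below both of its own. It rose in KR mice by 1.28 ± 0.32 (adjusted p = 0.0485), had -0.78 ± 0.30 in KN1 mice (adjusted p = 0.175), and differed by 2.06 ± 0.43 (unadjusted p = 0.000153, adjusted p = 0.229). H2-DMa, the partner subunit, had 57.2, 50.3, 47.4 and 61.8 CPM in KR mice, against 32.0 and 15.9 CPM in KR controls. It had 31.6, 26.6, 28.1 and 30 CPM in KN1 mice, against 55.1 and 29.8 CPM in KN1 controls. The KN1 groups overlapped, since KN1 control 7 fell within the KN1 mice. H2-DMa rose in KR mice by 1.17 ± 0.25 (adjusted p = 0.0344), had -0.56 ± 0.24 in KN1 mice (adjusted p = 0.216) and differed by 1.72 ± 0.34 (adjusted p = 0.168). Without KR control 4 the KR effects of H2-DMb2 and H2-DMa were 2.09 and 1.77, and without KR control 6 they were 0.77 and 0.73.

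Cd74, the invariant chain that guides class II molecules through the cell, had 591, 536, 521 and 626 CPM in KR mice, against 415 and 239 CPM in KR controls. It had 359, 298, 340 and 361 CPM in KN1 mice, against 809 and 534 CPM in KN1 controls. The groups did not overlap in either cohort and lay in opposite order, and the difference was 1.78 ± 0.41 with a 95% interval of 0.92 to 2.64 (adjusted p = 0.25). H2-Ab1, a chain of the class II molecule I-A, had 556, 511, 414 and 508 CPM in KR mice, against 338 and 165 CPM in KR controls. It had 367, 290, 365 and 362 CPM in KN1 mice, against 627 and 398 CPM in KN1 controls, and differed by 1.55 ± 0.38. H2-Eb1, of the molecule I-E, differed by 1.49 ± 0.37, and H2-DMb1 by 1.15 ± 0.25. Of the 10 members, 5 had every KR mouse above and every KN1 mouse below its controls, an arrangement found in 135 of 16517 genes (0.817%).

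The controls of the 2 cohorts differed in these genes as much as the mutants did. The median log2 difference of KR mice from KN1 mice was 0.82 over the 10 members, and that of KR controls from KN1 controls was -0.80. The mean log2 CPM over the list was 5.50 to 5.83 in KR mice, against 5.22 and 4.07 in KR controls 4 and 6, and 4.62 to 4.87 in KN1 mice, against 5.68 and 4.78 in KN1 controls 1 and 7. The median difference was 2.23 without KR control 4, when H2-DMa, H2-DMb2 and H2-Eb1 were called, 1.02 without KR control 6, 1.12 without KN1 control 1 and 1.81 without KN1 control 7. With all 7 controls pooled, which mixes batch with genotype, it was 0.82. In LR mice the median over the list was 0.48.

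The promoters of 4 members are shown because class II genes are known to share a promoter box, the Y box, and gave differences of 1 sign here. Each is the RefSeq window on GRCm38.p6 of 250 bases before and 50 after the start, with the Y box letters GATTGG, searched on both strands, in capitals. The windows are chr17:34305617-34305916 (plus strand) for H2-Eb1, chr17:34287774-34288073 (minus strand) for H2-Aa, chr17:34152941-34153240 (plus strand) for H2-DMb1 and chr17:34144999-34145298 (plus strand) for H2-DMb2.
H2-Eb1: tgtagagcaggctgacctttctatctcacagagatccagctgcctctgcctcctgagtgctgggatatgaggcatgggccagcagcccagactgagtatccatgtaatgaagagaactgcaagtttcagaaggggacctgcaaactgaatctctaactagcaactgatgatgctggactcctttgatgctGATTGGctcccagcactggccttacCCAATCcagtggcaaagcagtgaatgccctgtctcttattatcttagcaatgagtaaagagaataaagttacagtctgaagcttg
H2-Aa: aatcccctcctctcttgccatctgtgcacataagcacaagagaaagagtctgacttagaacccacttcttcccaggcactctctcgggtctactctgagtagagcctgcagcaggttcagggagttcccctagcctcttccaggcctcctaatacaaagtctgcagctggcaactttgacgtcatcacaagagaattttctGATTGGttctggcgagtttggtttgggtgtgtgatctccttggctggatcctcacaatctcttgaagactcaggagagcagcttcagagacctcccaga
H2-DMb1: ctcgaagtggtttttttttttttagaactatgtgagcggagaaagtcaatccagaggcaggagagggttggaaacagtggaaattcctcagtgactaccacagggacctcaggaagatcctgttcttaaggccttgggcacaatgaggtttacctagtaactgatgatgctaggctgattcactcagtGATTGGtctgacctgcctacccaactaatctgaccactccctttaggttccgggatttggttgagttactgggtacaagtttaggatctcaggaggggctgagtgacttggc
H2-DMb2: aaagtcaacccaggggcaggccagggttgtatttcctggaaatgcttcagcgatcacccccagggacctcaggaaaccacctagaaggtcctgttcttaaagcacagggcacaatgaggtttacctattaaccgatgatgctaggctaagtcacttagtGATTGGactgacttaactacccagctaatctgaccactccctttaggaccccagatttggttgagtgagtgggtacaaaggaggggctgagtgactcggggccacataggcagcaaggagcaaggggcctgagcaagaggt
The match begins 60 bases before the start in H2-Eb1, with another on the opposite strand at 35 bases, 49 before in H2-Aa, 62 before in H2-DMb1 and 91 before in H2-DMb2. Of the 10 tested members, 7 matched the promoter table, and each of the 7 held GATTGG in at least 1 of its windows. By gene, the letters occur in 18.2% of all genes of the promoter table and in 23.2% of the tested genes found there. By window, they occur in 7 of 8 windows of the class II members, in 16.1% of all windows and in 19.5% of those of tested genes. A match is a description of these letters and shows no binding.

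Genes of the cells that carry class II molecules in the epidermis were examined next, because in bulk tissue fewer cells of a type and less RNA per cell cannot be told apart. Langerhans cells are the resident antigen-presenting cells of the epidermis. Over the 15 genes of their list the median was 0.80 in KR mice and -0.30 in KN1 mice, and the median difference was 1.16, positive in 15 of 15 (50.5% of all genes), with 9 at an unadjusted p under 0.05 (7.57% of all genes). The list shares Cd74, H2-Aa, H2-Ab1 and H2-Eb1 with the class II list. Mfge8, a secreted protein that binds dying cells, rose in KR mice by 1.14 ± 0.28 (adjusted p = 0.048) and had -0.30 ± 0.26 in KN1 mice (adjusted p = 0.562). Cd207, which encodes langerin, the defining marker, had 25.9, 24.8, 31.1 and 23.7 CPM in KR mice, against 30.7 and 10.0 CPM in KR controls, and 24.9, 19.9, 32.3 and 33.4 CPM in KN1 mice, against 33.5 and 37.2 CPM in KN1 controls. The KR groups overlapped, and the difference was 0.71 ± 0.44 (unadjusted p = 0.124). It was 1.76 without KR control 4 and 0.13 without KR control 6, and the KR effect ran from -0.24 to 1.39 when 1 mouse was left out. Cd207 was chosen after its values were seen. The summed level of the list was 2020 to 2280 CPM in KR mice, against 1580 and 1030 CPM in KR controls, and 1460 to 1740 CPM in KN1 mice, against 2720 and 1960 CPM in KN1 controls. The shared class II genes make up most of this sum. Of 2280 CPM in KR mouse 1, Cd74, H2-Ab1 and H2-Eb1 held 591, 556 and 345 CPM.

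Macrophage and neutrophil genes gave values of similar size. Over the 12 tested of 20 listed genes the medians were 0.83 in KR mice and -0.46 in KN1 mice, and the difference had a median of 1.19, positive in 11 of 12 (50.5% of all genes), with 9 at an unadjusted p under 0.05 (75.0%, against 7.57% of all genes). Tyrobp, a signalling adaptor of myeloid and natural killer cells, had 8.55, 6.83, 9.21 and 8.19 CPM in KR mice, against 3.96 and 2.88 CPM in KR controls. It had 5.57, 4.40, 6.51 and 3.22 CPM in KN1 mice, against 8.41 and 5.97 CPM in KN1 controls. It rose in KR mice by 1.24 ± 0.29 (adjusted p = 0.0399) and differed by 1.80 ± 0.39 (adjusted p = 0.242). Fcer1g, the shared gamma chain of Fc receptors, had 10.9, 9.21, 9.01 and 11.8 CPM in KR mice, against 7.00 and 5.14 CPM in KR controls, and 6.43, 8.57, 7.61 and 5.63 CPM in KN1 mice, against 16.5 and 11.3 CPM in KN1 controls. No group of Fcer1g overlapped its own controls, and the difference was 1.73 ± 0.37 (adjusted p = 0.242). Csf1r, the receptor for the growth factor of macrophages and Langerhans cells, differed by 1.11 ± 0.34. Lyz2, a lysozyme of myeloid cells, had at most 2.39 CPM in these 12 mice. The markers Ly6g, Mrc1 and Cd163 had too few counts to be tested.

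The resident T cells of mouse epidermis carry a gamma-delta receptor, and 27 of 31 listed genes were tested. Their median was 0.06 in KR mice and -0.64 in KN1 mice, where 4 were called down (1.11% of all genes) and 0 up (0.860% of all genes). The median difference was 0.72, positive in 22 of 27 (50.5% of all genes), with 8 at an unadjusted p under 0.05 (29.6%, against 7.57% of all genes). Trdc, the constant part of the delta chain, had 9.26, 8.81, 12.2 and 9.17 CPM in KR mice, against 11 and 10.1 CPM in KR controls. It had 11.8, 9.72, 8.58 and 5.40 CPM in KN1 mice, against 29.8 and 23.5 CPM in KN1 controls. Only the KN1 controls stood high among the 12 mice. Trdc fell by 1.59 ± 0.36 in KN1 mice (adjusted p = 0.0343) and had -0.10 ± 0.38 in KR mice (adjusted p = 0.898). Cd3d, a subunit of the T cell receptor complex, fell by 1.29 ± 0.29 in KN1 mice (adjusted p = 0.0317), with 3.96, 3.24, 3.46 and 3.56 CPM there, against 10.7 and 6.62 CPM in KN1 controls. Its difference of effects was 1.56 ± 0.43 (adjusted p = 0.435), and -0.33 with all controls pooled. Ctla2a, an inhibitor of cathepsins, fell by 1.91 ± 0.41 in KN1 mice (adjusted p = 0.0276), and Rgs1, a regulator of G protein signalling in lymphocytes, differed by 2.13 ± 0.72 (adjusted p = 0.551).

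**Figure D2:**
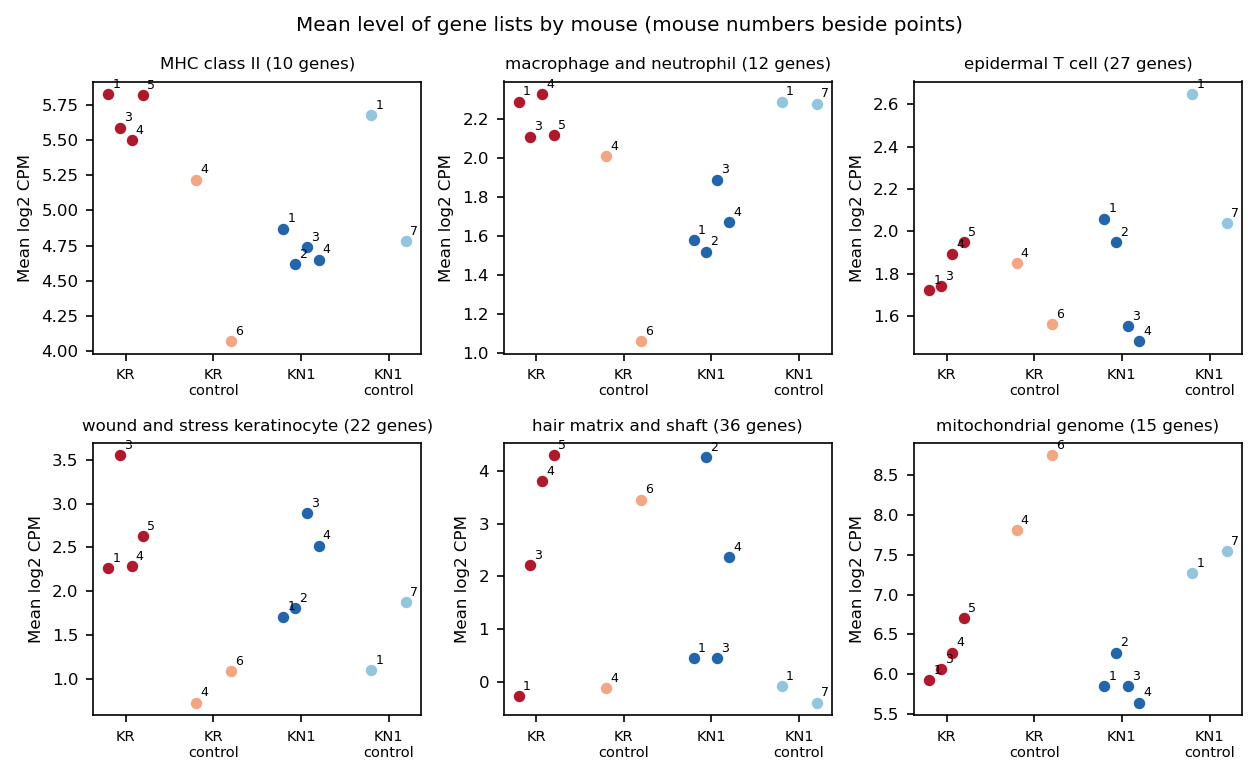
Mean log2 CPM over the tested genes of 6 lists (vertical axis), 1 point per mouse with its number, in KR mice, KR controls, KN1 mice and KN1 controls. KR control 6 is the lowest of the 12 mice in MHC class II genes at 4.07 and is high in hair genes at 3.46. Mitochondrial genes lie above 7 in all 4 controls drawn and below 7 in all 8 mutants. In LR controls, not drawn, they had 5.90 and 5.90 in controls 2 and 3 and 8.12 in control 5, which carries a second name.

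Genes of wounded and stressed keratinocytes had a larger median log2 fold change in KR mice. Over 22 tested of 36 listed genes the median was 2.50 in KR mice, with 4 called up (0.696% of all genes), and 0.87 in KN1 mice, with 1 called up (0.860% of all genes). The median difference was 1.23, positive in 16 of 22 (50.5% of all genes). KR mice differed from KN1 mice by a median of 0.27 over the list, and KR controls from KN1 controls by -0.7. The mutants overlapped, with a mean log2 CPM of 2.26 to 3.55 in KR mice and 1.71 to 2.89 in KN1 mice. It was 0.73 and 1.09 in KR controls and 1.1 and 1.88 in KN1 controls. The summed level was 2450 to 3700 CPM in KR mice and 3130 to 5540 CPM in KN1 mice. Tslp, a cytokine that keratinocytes release to activate dendritic cells and type 2 immunity, rose in both. It had 9.85, 10.7, 10.0 and 14.1 CPM in KR mice, against 0.193 and 0.270 CPM in KR controls. It had 2.23, 2.43, 3.18 and 2.30 CPM in KN1 mice, against 0.408 and 0.760 CPM in KN1 controls. Every KR mouse was above every KN1 mouse, which was above every control. The log2 fold changes were 5.58 ± 0.58 in KR mice (adjusted p = 0.000128) and 2.19 ± 0.52 in KN1 mice (adjusted p = 0.0378), and their difference was 3.39 ± 0.80 with a 95% interval of 1.71 to 5.06 (unadjusted p = 0.000479, adjusted p = 0.264). The control libraries held 7 Tslp reads in KR controls and 15 in KN1 controls, so the size of either fold rests on few reads. In LR mice Tslp rose by 2.58 (adjusted p = 0.00411).

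Sprr2a3, a small proline-rich protein of the cornified envelope, had 25.3, 69.6, 26.6 and 46.5 CPM in KR mice, against 2.08 and 2.70 CPM in KR controls. It had 3.71, 2.20, 6.23 and 6.55 CPM in KN1 mice, against 4.43 and 2.39 CPM in KN1 controls. The KN1 groups overlapped. The gene rose in KR mice by 4.15 ± 0.74 (adjusted p = 0.0211), had 0.40 ± 0.66 in KN1 mice (adjusted p = 0.793), and differed by 3.75 ± 0.94 (adjusted p = 0.386); its near copies Sprr2a1 and Sprr2a2 can share its reads. Cxcl1, a neutrophil-attracting chemokine, had 29 reads in KR mice and 0 in the KR controls together, at least 8.41-fold higher against a floor of 3 reads over the group, and 57 reads in KN1 mice, against 23 in KN1 controls. Stfa3, a cysteine protease inhibitor, had 3.23 ± 0.92 in KR mice (adjusted p = 0.0784) and 0.52 ± 0.81 in KN1 mice.

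The gasdermins form pores in membranes, and 2 of the 5 tested were called up in KR mice (0.696% of all genes) and 0 in KN1 mice (0.860% of all genes). Gsdmc had 36.6, 42.7, 23.9 and 45.5 CPM in KR mice, against 5.41 and 5.59 CPM in KR controls. It had 5.32, 3.59, 4.43 and 4.02 CPM in KN1 mice, against 5.81 and 4.02 CPM in KN1 controls. The 4 KR mice stood above the other 8, whose groups overlapped. Gsdmc rose in KR mice by 2.76 ± 0.43 (adjusted p = 0.0105), had -0.20 ± 0.41 in KN1 mice (adjusted p = 0.835), and differed by 2.96 ± 0.57 (95% interval 1.76 to 4.16, unadjusted p = 6.72e-05, adjusted p = 0.168). With the 12 mice fitted alone the difference was called (2.96, adjusted p = 0.0359). In LR mice Gsdmc had 7.96, 5.86 and 16.1 CPM, against 1.18, 1.92 and 4.11 CPM in LR controls, and rose by 2.00 (adjusted p = 0.0196). Gsdmc2, a close relative whose reads may be shared, rose in KR mice by 4.43 ± 0.83 (adjusted p = 0.0211) and had 0.47 ± 0.78 in KN1 mice (adjusted p = 0.798). KR controls 4 and 6 held 13 and 0 reads of Gsdmc2, so the size of its fold rests on few reads. Without KR control 6 its KR effect was 3.67. Without KR control 4 the remaining control was at 0 reads, and the fitted value of 9.38 has no upper limit.

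A further 6 genes were chosen after their values were seen, from those with the smallest p of the difference. Alox12e, an epidermal lipoxygenase, had the smallest p of all. It had 1460, 1720, 1030 and 1350 CPM in KR mice, against 597 and 766 CPM in KR controls. It had 1120, 1180, 1060 and 1320 CPM in KN1 mice, against 1820 and 1400 CPM in KN1 controls. The order of mutants and controls was opposite in the cohorts without overlap, and the difference was 1.49 ± 0.26 (95% interval 0.94 to 2.04, unadjusted p = 2.01e-05, adjusted p = 0.168). The KR controls lay below the KN1 controls by 1.24 on the log2 scale, while KR mice lay above KN1 mice by 0.25. Ackr3, a receptor that clears the chemokine Cxcl12, had 74.4, 85.0, 72.2 and 100 CPM in KR mice, against 35.4 and 35.5 CPM in KR controls, and 70.4, 44.5, 52.6 and 48.5 CPM in KN1 mice, against 59.3 and 64.1 CPM in KN1 controls. It rose in KR mice by 1.23 ± 0.19 (adjusted p = 0.0105) and differed by 1.42 ± 0.26. Dusp6, a phosphatase that limits ERK signalling, rose in KR mice by 0.97 ± 0.18 (adjusted p = 0.0211) and differed by 1.13 ± 0.25. With all 7 controls pooled, which mixes batch with genotype, the difference of Dusp6 was -0.07.

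Pyy, a peptide hormone best known from the gut, had 627, 1230, 591 and 1120 CPM in KR mice, against 42.1 and 35.7 CPM in KR controls. It had 235, 120, 244 and 306 CPM in KN1 mice, against 100 and 35.8 CPM in KN1 controls. All 8 mutants were above their controls, and the log2 fold changes were 4.52 ± 0.59 in KR mice (adjusted p = 0.0053) and 1.73 ± 0.50 in KN1 mice (adjusted p = 0.0881), with a difference of 2.79 ± 0.67 (adjusted p = 0.32).

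On the negative side, Klf9, a transcription factor of the Krüppel-like family, had 84.9, 85.2, 75.8 and 64.1 CPM in KR mice, against 96.4 and 56.0 CPM in KR controls. It had 150, 166, 201 and 235 CPM in KN1 mice, against 71.3 and 73.7 CPM in KN1 controls. The KN1 mice stood above the other 8 mice, and Klf9 rose by 1.38 ± 0.23 in KN1 mice (adjusted p = 0.00881), against 0.02 ± 0.21 in KR mice (adjusted p = 0.965), a difference of -1.36 ± 0.30 (adjusted p = 0.25). Sebox, a homeobox gene, had 1.54, 1.19, 2.46 and 0.691 CPM in KR mice, against 4.25 and 9.01 CPM in KR controls, and 16, 23.7, 17.6 and 16.2 CPM in KN1 mice, against 7.14 and 12.8 CPM in KN1 controls. It fell by 2.15 ± 0.50 in KR mice (adjusted p = 0.0422), had 0.90 ± 0.48 in KN1 mice (adjusted p = 0.329) and differed by -3.05 ± 0.71 (adjusted p = 0.264).

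**Figure D3:**
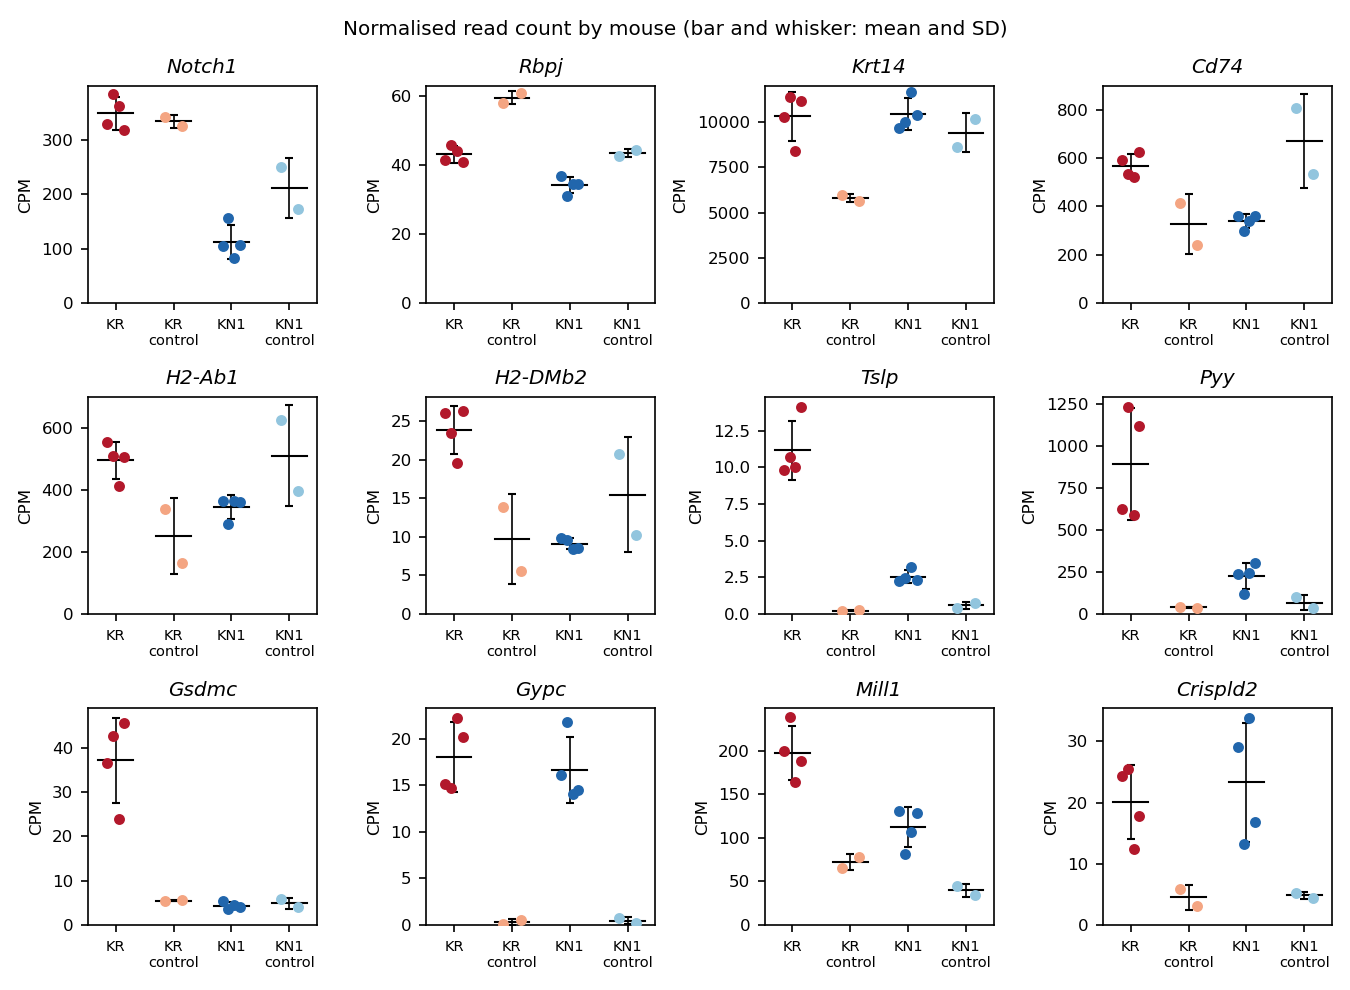
Normalised read count (CPM, vertical axis) of 12 genes by mouse in KR mice, KR controls, KN1 mice and KN1 controls, with bars and whiskers for the mean and SD (n = 4 mutants and 2 controls). Gsdmc stands high in KR mice alone, Tslp and Pyy in both mutants with KR mice above KN1 mice, Gypc, Mill1 and Crispld2 in both mutants, and Cd74 lies above its controls in KR mice and below them in KN1 mice.

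For the Notch pathway itself the median difference was near 0. Over 36 tested of 41 listed components the medians were -0.01 in KR mice and -0.04 in KN1 mice, with a median difference of -0.03, and 5 had an unadjusted p under 0.05 (13.9%, against 7.57% of all genes). Notch1 differed by 0.98 ± 0.28 (unadjusted p = 0.00276, adjusted p = 0.452), and it is the gene deleted in KN1 mice. Notch4, a receptor best known from endothelium, had 2.49, 2.18, 1.54 and 2.96 CPM in KR mice, against 0.580 and 0.631 CPM in KR controls. It had 0.619, 1.39, 0.969 and 1.61 CPM in KN1 mice, against 1.22 and 1.52 CPM in KN1 controls, and differed by 2.14 ± 0.65 (adjusted p = 0.487). Over the 8 tested endothelial genes the summed level was 10.3 to 31.5 CPM in KR mice, against 9.85 and 13.3 CPM in KR controls, and 14.8 to 17 CPM in KN1 mice, against 10.2 and 10.5 CPM in KN1 controls, and their part in the Notch4 value was not tested. Itch, a ubiquitin ligase that marks Notch for breakdown, fell by 0.76 ± 0.17 in KR mice (adjusted p = 0.0385) and had -0.19 ± 0.18 in KN1 mice. Kdm5a, a demethylase that acts with Rbpj at silent targets, differed by -0.59 ± 0.26 (adjusted p = 0.632).

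Among 17 tested of 19 listed Notch target genes, 1 was called up (0.696% of all genes) and 1 down (0.902%) in KR mice, and 0 were called in KN1 mice (1.97% in both directions). The medians were 0.06 and 0.23, and the median difference was -0.15. Nfkb2, an NF-kappa-B subunit gene listed as a Notch target in lymphoid cells, rose in KR mice by 1.01 ± 0.17 (adjusted p = 0.0135). It had 135, 147, 84.9 and 125 CPM there, against 60.7 and 61.2 CPM in KR controls, and 112, 112, 135 and 128 CPM in KN1 mice, against 96.4 and 89.6 CPM in KN1 controls. Its fold change in KN1 mice was 0.39 ± 0.17 (adjusted p = 0.229) and the difference 0.62 ± 0.24. Il2ra, a subunit of the interleukin 2 receptor, had at most 1.49 CPM in these mice and differed by 2.17 ± 0.91. The direct targets Hes1 and Nrarp, chosen after their values were seen, had log2 differences of -0.18 and -0.44, neither of which passed (unadjusted p = 0.605 and 0.223).

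Basal keratinocyte genes were examined next. Krt14 rose in KR mice by 0.82 ± 0.16 (adjusted p = 0.0211), with 10300, 11400, 8410 and 11200 CPM there, against 5990 and 5670 CPM in KR controls. It had 9660, 10000, 11700 and 10400 CPM in KN1 mice, against 8650 and 10200 CPM in KN1 controls, a fold change of 0.15 ± 0.15 (adjusted p = 0.644). The ranges of the mutants overlapped, and the KR controls stood below the other 10 mice. Over 20 basal keratinocyte genes, 3 were called up in KR mice (0.696% of all genes) and 2 in KN1 mice (0.860% of all genes), with medians of 0.14 in each and a median difference of -0.08. Thbs1, a matrix glycoprotein, had 335, 445, 257 and 410 CPM in KR mice, against 155 and 111 CPM in KR controls, and 421, 502, 506 and 624 CPM in KN1 mice, against 348 and 644 CPM in KN1 controls. It rose in KR mice by 1.44 ± 0.26 (adjusted p = 0.016) and had 0.05 ± 0.24 in KN1 mice. Ifitm3, an interferon-induced membrane protein, rose in KR mice by 1.27 ± 0.20 (adjusted p = 0.0105) and in LR mice by 1.30 (adjusted p = 0.0012), and had 0.53 ± 0.20 in KN1 mice (adjusted p = 0.166). Itga6, an integrin that anchors basal cells, differed by -0.59 ± 0.27 (adjusted p = 0.642).

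Genes of the differentiating layers followed. Over 44 suprabasal genes the medians were -0.43 in KR mice, with 1 called down (0.902% of all genes), and -0.12 in KN1 mice, with 0 called (1.97%). The difference had a median of -0.35 and was negative in 38 of 44, while 50.5% of all genes were positive. At an unadjusted p under 0.05 there were 3 (6.82%, against 7.57% of all genes). Flg, filaggrin, which bundles keratins in the cornified layer, had 24.3, 35.3, 46.7 and 26.3 CPM in KR mice, against 49.5 and 79.0 CPM in KR controls. It had 109, 300, 133 and 157 CPM in KN1 mice, against 56.1 and 36.4 CPM in KN1 controls. The order was opposite in the cohorts, with log2 fold changes of -0.95 ± 0.63 in KR mice and 1.91 ± 0.71 in KN1 mice and a difference of -2.86 ± 0.94 (adjusted p = 0.551). Casp14, a caspase of cornification that helps to process filaggrin, differed by -2.27 ± 0.92 (adjusted p = 0.627), with the highest level, 239 CPM, in KR control 6. Without that control the difference was -0.98, and with the replicate number as a block it was -0.21.

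**Figure D4:**
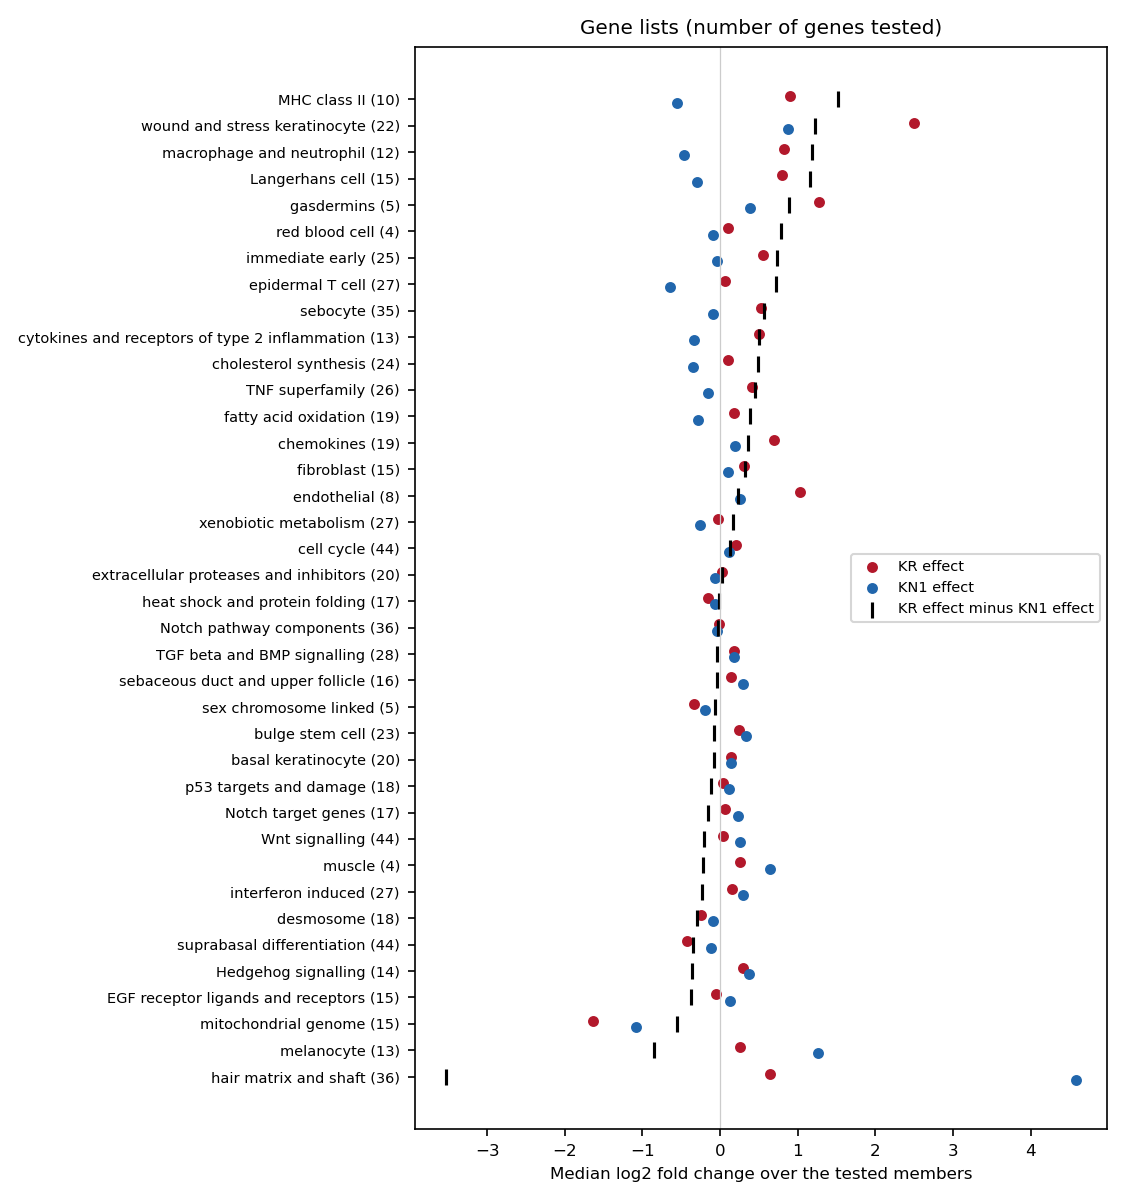
Median log2 fold change over the tested members of gene lists (horizontal axis, lists with at least 4 tested genes, number in brackets) for KR mice over KR controls (red), KN1 mice over KN1 controls (blue) and the median difference (black bar), in order of the latter. MHC class II genes stand at the top with 0.90 and -0.56, Notch components near 0, and hair matrix and shaft genes at the bottom with 0.65 and 4.58.

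Several signalling and metabolic lists had positive differences in most members. For cholesterol synthesis the medians were 0.10 in KR mice and -0.35 in KN1 mice, and the difference was positive in 22 of 24 genes (50.5% of all genes) with a median of 0.49. Its summed level was 3260, 7300, 3790 and 6890 CPM in KR mice 1, 3, 4 and 5, against 3650 and 4380 in KR controls. Only KR mice 3 and 5 lay above both of their controls. In KN1 mice the sum was 2790 to 4290 CPM, against 3570 and 4750 CPM in KN1 controls. An unadjusted p under 0.05 was found in 3 of 24 (12.5%, against 7.57% of all genes), and in 0 of 24 with the trend on transcript length removed from each library. Nsdhl, an enzyme of the late pathway, differed by 0.63 ± 0.27 and Ebp, a sterol isomerase, by 0.59 ± 0.26. For fatty acid oxidation the medians were 0.18 and -0.28, the difference was positive in 18 of 19 genes (50.5% of all genes) with a median of 0.38, and 5 of 19 had an unadjusted p under 0.05 (26.3%, against 7.57% of all genes). This list summed to 1420, 1790, 1600 and 1890 CPM in KR mice 1, 3, 4 and 5, against 1610 and 1650 in KR controls. In KN1 mice it summed to 1450 to 1570 CPM, against 1800 and 1970 CPM in KN1 controls. Acads, the short-chain acyl-CoA dehydrogenase, had 19.0, 27.4, 24.3 and 28.0 CPM in KR mice, against 18.4 and 18.4 CPM in KR controls. It had 25.7, 23.3, 21.9 and 22.2 CPM in KN1 mice, against 29.7 and 32.8 CPM in KN1 controls, and differed by 0.85 ± 0.23 (adjusted p = 0.42). Cpt2, which passes fatty acids into the mitochondrial matrix, differed by 0.76 ± 0.30. No gene of either list was called in either mutant (1.60% of all genes in KR mice and 1.97% in KN1 mice).

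In the TNF superfamily 3 of 26 tested genes were called up in KR mice (0.696% of all genes) and 0 in KN1 mice (0.860% of all genes), with medians of 0.41 and -0.16. Tnfrsf4, the receptor OX40 of activated T cells, had 24.3, 19.2, 16.4 and 20.4 CPM in KR mice, against 10.2 and 10.6 CPM in KR controls. It had 18.2, 17.9, 23.3 and 18.8 CPM in KN1 mice, against 19.6 and 19.3 CPM in KN1 controls. The KR controls were the lowest of the 12 mice, and the gene rose in KR mice by 0.94 ± 0.19 (adjusted p = 0.0265), had 0.01 ± 0.18 in KN1 mice and differed by 0.94 ± 0.26 (adjusted p = 0.435). Tnfrsf9, the receptor 4-1BB, rose in KR mice by 2.62 ± 0.63 (adjusted p = 0.045), at 0.716 to 1.78 CPM there, against 0.193 and 0.270 CPM in KR controls, and had -0.23 ± 0.57 in KN1 mice. Tnf itself had 1.93 ± 0.49 in KR mice (adjusted p = 0.0539) and -0.18 ± 0.48 in KN1 mice. Ccl22, a chemokine of Langerhans and dendritic cells for type 2 T cells, had 1.68 ± 0.47 in KR mice (adjusted p = 0.0696) and -0.23 ± 0.44 in KN1 mice, and Il13, a type 2 cytokine, had at most 1.87 CPM in these mice. Betacellulin, Btc, a ligand of the EGF receptor, fell in KR mice by 2.41 ± 0.48 (adjusted p = 0.0316), with 5.58, 6.14, 16.3 and 4.04 CPM there, against 47.2 and 37.9 CPM in KR controls. In KN1 mice Btc had 20.4, 18.2, 21.2 and 25.5 CPM, against 50.9 and 55.5 CPM in KN1 controls, a fold change of -1.32 ± 0.47 (adjusted p = 0.16). All 8 mutants were below the controls, and the difference was -1.09 ± 0.70 (unadjusted p = 0.141).

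Protease inhibitors and matrix genes gave a few larger values. Serpina3g, an inhibitor of cathepsins, had 37.9, 50.5, 30.1 and 40.7 CPM in KR mice, against 27.8 and 21 CPM in KR controls, and 34.3, 25.6, 29.2 and 32.3 CPM in KN1 mice, against 42.8 and 52.7 CPM in KN1 controls. The order was opposite in the cohorts, and the difference was 1.35 ± 0.30 (adjusted p = 0.25). Serpina3n, of the same family, rose in KR mice by 3.97 ± 0.84 (adjusted p = 0.0344) and had 0.42 ± 0.75 in KN1 mice. Mmp9, a gelatinase, differed by 1.75 ± 0.56 (adjusted p = 0.515). Vim, vimentin, an intermediate filament of fibroblasts, leukocytes and Langerhans cells, had 181, 191, 195 and 206 CPM in KR mice, against 119 and 93.7 CPM in KR controls, and 97.6, 105, 119 and 137 CPM in KN1 mice, against 143 and 170 CPM in KN1 controls. Vim rose in KR mice by 0.86 ± 0.19 (adjusted p = 0.0351), had -0.45 ± 0.18 in KN1 mice (adjusted p = 0.189) and differed by 1.31 ± 0.26 (adjusted p = 0.168). Over the fibroblast list the difference was positive in 8 of 15 genes (50.5% of all genes), with a median of 0.32. Tgfb2, a TGF beta ligand, differed by 1.10 ± 0.36, and in the Wnt pathway Znrf3 and Lgr4, a ligase that removes Wnt receptors and a receptor that opposes it, differed by -0.81 ± 0.30 and -0.84 ± 0.31, with adjusted p of 0.591 each.

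Hair growth genes varied strongly between mice of the same group, although all skin was labelled as telogen. The mean log2 CPM over 36 hair matrix and shaft genes was -0.28, 2.21, 3.81 and 4.30 in KR mice 1, 3, 4 and 5, against -0.12 and 3.46 in KR controls 4 and 6. It was 0.44, 4.27, 0.44 and 2.37 in KN1 mice, against -0.08 and -0.40 in KN1 controls. High mice were thus found in KR mice, KR controls and KN1 mice and not among KN1 controls. The median over the list was 0.65 in KR mice and 4.58 in KN1 mice, 4.29 when 4 genes with 0 reads in both KN1 controls were set at their bound of 3 reads, and the median difference was -3.53, with 0 of 36 at an unadjusted p under 0.05 (7.57% of all genes). It was 0.26 without KR control 6. Krt71, an inner root sheath keratin, had 0.475, 36.9, 116 and 194 CPM in KR mice, against 0.531 and 136 CPM in KR controls, and 6.06, 200, 5.54 and 83.4 CPM in KN1 mice, against 0.459 and 0.217 CPM in KN1 controls. Over 13 melanocyte genes the median difference was -0.85. Pmel, a melanosome protein, rose in KN1 mice by 1.01 ± 0.25 (adjusted p = 0.0423), and Mc1r, the melanocortin receptor, differed by -3.70 ± 1.29 at no more than 2.97 CPM. With the hair gene level of each mouse as a covariate, chosen after seeing the data, the median difference of MHC class II genes was 1.46 and that of Langerhans cell genes 1.12.

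The difference also followed transcript length. Over 13441 genes with an annotated length (81.4% of those tested) the median difference was 0.23 in the decile of shortest transcripts and -0.27 in the decile of longest ones. The KR controls differed from the KN1 controls along the same axis, by -0.57 in the shortest decile and 0.52 in the longest. With the length trend of each library removed, chosen after seeing the data, the median difference was 1.36 for MHC class II, 1.20 for Langerhans cells, 1.17 for macrophages and neutrophils, 0.45 for epidermal T cells and 1.03 for wounded and stressed keratinocytes. In that fit Gsdmc differed by 2.83, Tslp by 3.14, Alox12e by 1.37 and Klf9 by -1.28.

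**Figure D5:**
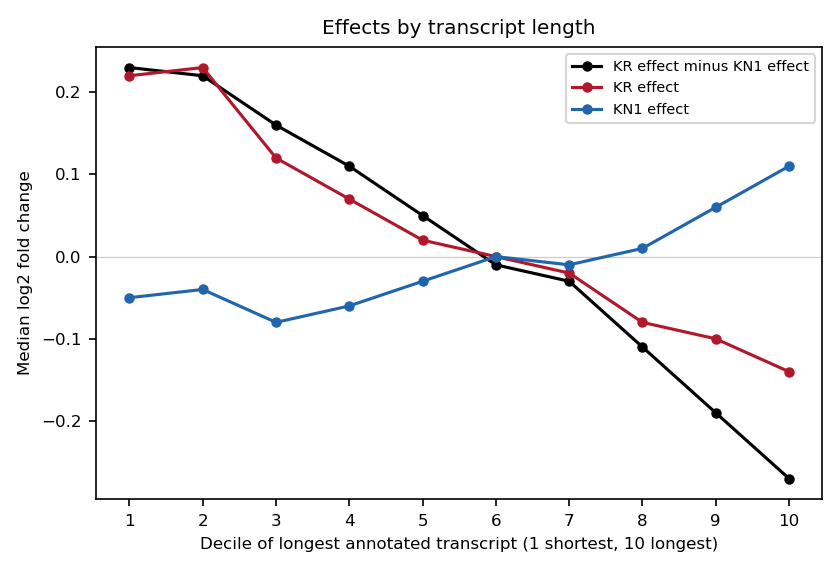
Median log2 fold change (vertical axis) by decile of the longest annotated transcript (horizontal axis) for KR mice over KR controls, KN1 mice over KN1 controls and the difference of these effects, over 13441 genes. The difference falls along the deciles to -0.27, with the KR effect falling and the KN1 effect slightly rising.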

How the data were processed

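Values were raw read counts as deposited, for 21011 genes in 18 mice with 1 library each. Per the submitters' processing notes STAR, HTSeq and DESeq2 were used with build mm10. Their versions and the strand setting are not given in the sources used here, and overlapping genes and near copies may share reads. Depth was 8076316 to 21216169 counts.

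Differences were tested with edgeR 4.0.16 under R 4.3.3, by its quasi-likelihood F test. The fit took 6 group means over all 18 mice, TMM scaling, robust estimation and filterByExpr (16517 genes kept). The contrast was (KR minus KR controls) minus (KN1 minus KN1 controls), two-sided, with Benjamini-Hochberg adjustment at 0.05. Log2 fold changes are ± SE taken from the F statistic, and intervals are 95%. The level of a gene is CPM from counts and TMM factors, and mean log2 CPM used a prior count of 2. Floors cover counting error only. The common biological coefficient of variation was 0.225. The fit was tested on simulated data.

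The comparison, the 40 gene lists and the named genes were chosen with earlier results of these data known. Named were Rbpj, Notch1, Krt14, Lrig1 and Esr1, up to 12 genes per direction past the threshold in the difference (0 passed), up to 4 genes per list with the smallest p of the difference, and up to 6 per direction called in both effects; from these the text gives a selection, and genes outside the rule are said to be so. Each library is a separate mouse. Libraries of 1 group differed beyond sampling noise, with a chi-square per degree of freedom of at least 6.41. Alternatives were DESeq2 1.42.0, other scaling and filters, the 12 mice alone, pooled controls, covariates for the second-named share and for sex, second-named controls left out, a replicate block and each mouse left out. Added after seeing the data were limma voom (limma 3.58.1) with sample weights, a hair gene covariate and removal of the length trend (GENCODE M21, GRCm38). One result is not reported here.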

Additional observations from a re-analysis of the deposited data

Results flagged for a closer look

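In groups of 4 mice, 172 sets of values were examined for a mouse far from the rest, and 7 stood out. Chance alone singles out about 1 in 20 groups. H2-Ab1 had 290.0 CPM in KN1 mouse 2, against 362 to 367 CPM in the other KN1 mice. KR mouse 4 stood out in 3 genes, with 4.09 CPM of Rgs1 (1.66 to 2.07 in the others), 12.2 CPM of Trdc (8.81 to 9.26) and 0.409 CPM of Il2ra (1.31 to 1.49). Kdm5a had 69.9 CPM in KR mouse 1, against up to 55.7 CPM in the other KR mice. Tnfrsf4 had 23.3 CPM in KN1 mouse 3, against 17.9 to 18.8 CPM in the other KN1 mice. The mean log2 CPM of fatty acid oxidation genes was 5.72 in KN1 mouse 2, against 5.63 to 5.64 in the other KN1 mice.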

How the results depend on the processing

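Most of the differences kept their direction and their side of the threshold: of 2005 values for 65 genes under alternatives, 1938 did, 36 became called and 31 reversed, and of 1178 list medians 1053 moved by less than the spread between replicates. The calls were less stable. Rps19-ps6, a pseudogene by its symbol, is outside the naming rule and was noticed after its values were seen. Its difference was called with DESeq2 (-2.01, adjusted p = 0.000654) and with the 12 mice alone (-2.01, adjusted p = 0.0359). It was also called with pooled controls (-2.62, adjusted p = 3.5e-05), and it was the 1 gene called with the length trend removed (-2.2, adjusted p = 0.0157). The difference had 38 called genes with DESeq2, 2 with the 12 mice fitted alone, 134 with all 7 controls pooled, 1 with the length trend removed, and 0 to 3 when 1 mouse was left out (3 without KR control 4). Calls in KR mice numbered 1086 with DESeq2, 995 with the 12 mice alone, 809 with pooled controls, 12 with the second-named share as a covariate, 32 with second-named controls left out, 531 with sex as a covariate, 1984 with limma voom, and 5 (without KR control 6) to 1353 (without LR control 5) when 1 mouse was left out. Calls in KN1 mice numbered 820 with DESeq2, 1867 with pooled controls, 19 with the second-named share, 41 with second-named controls left out, 164 with the hair covariate, 164 with the length trend removed, 176 with limma voom, and 2 (without KN1 control 7) to 640 (without LR control 5) when 1 mouse was left out. The cause of these shifts was not tested.

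With the replicate block, 4 genes were called in KR mice, 2 in KN1 mice and 0 in the difference. Deviations of same-numbered mice correlated at -0.278 to 0.418, so the mice share a number and no pairing is assumed. Under that block the differences of Mc1r (0.11), Pmel (0.14) and Krt71 (5.70) reversed, and Krt71 also with second-named controls left out (0.01).

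With all controls pooled, which mixes batch with genotype, differences reversed for Rbpj (0.33), Krt14 (-0.02), Cd3d (-0.33), Rgs1 (-0.47), Cxcl1 (-1.24), Thbs1 (-0.51, and -0.17 for its KR effect), Itga6 (0.39), Itch (0.13), Ebp (-0.36), Znrf3 (0.09), Lgr4 (0.19), Krt71 (0.23), Dusp6 (-0.07) and Cd207 (-0.07). Rbpj also reversed with the length trend removed (0.03). The difference of Hes1 reversed with second-named controls left out (0.21) and with the replicate block (0.50), and ran from -0.61 to 0.12 when 1 mouse was left out (0.12 without KN1 control 7), while that of Igfl3 ran from -0.24 (without KR control 4) to 3.13. The difference of Lrig1, 0.00, was -0.00 with sex as a covariate and -0.17 to 0.20 when 1 mouse was left out. With 2 controls per cohort, the number of mice limits what could be detected.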

Other observations

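Of the 8 genes called up in both mutants that have an annotated position, 4 form pairs of neighbours. Gypc and Tslp lie 255.3 kb apart on chromosome 18, and Ceacam12 and Mill1 lie 167.4 kb apart on chromosome 7 (GRCm38). Of the 7 other tested genes within 500 kb of the first pair, 0 were called up in KR mice and 0 in KN1 mice, with median log2 fold changes of -0.31 and -0.07. Near the other pair, 1 further gene was tested, Igfl3, with 1.62 in KR mice (adjusted p = 0.274) and 0.85 in KN1 mice (adjusted p = 0.66). These pairs were noticed after their values were seen, and no test was made of them. In LR mice Ceacam12 rose by 2.52 (adjusted p = 0.000801) and Mill1 by 1.12 (adjusted p = 0.00775), while Gypc had -3.08 (adjusted p = 0.0714).

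Over 35 tested sebocyte genes the medians were 0.53 in KR mice and -0.09 in KN1 mice. For the difference, 0 of the genes had an unadjusted p under 0.05 (7.57% of all genes). Their summed level was 6760, 18100, 8660 and 16100 CPM in KR mice 1, 3, 4 and 5, against 9330 and 9080 in KR controls. Cell cycle genes had medians of 0.21 in KR mice and 0.11 in KN1 mice over 44 genes. In the difference, 0 of these had an unadjusted p under 0.05 (7.57% of all genes). Immediate early genes, which respond to handling of tissue among other stimuli, had medians of 0.55 and -0.04 over 25 genes, and the KR controls lay below the KN1 controls by a median of 1.48 on the log2 scale.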
